A study of Mus musculus with 12 samples.

Results

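The Zfp genes of the mouse encode a large share of its zinc finger proteins, and here their CpG methylation was followed across the divisions of B cells that responded to lipopolysaccharide (LPS), a bacterial cell wall component. A gene was included when its symbol in the authors' annotation began with Zfp followed by a digit, apart from Zfp710 and Zfp146, and when at least 5 of its CpGs lay within 50 kb of the nearest transcription start site. This gave 292 genes with 9620 CpGs, of 16505 genes that met the same limits and of 760348 CpGs in the whole series. Another 31 of the 323 Zfp genes with any CpG in that range had under 5 CpGs and were left out. The 7 Zfp genes with exactly 5 CpGs had a median difference of -4.07 percentage points between CD138+ cells of division 8 and undivided cells, and the 14 Zfp genes with 4 CpGs had -3.87 points.

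Most Zfp proteins carry tandem C2H2 zinc fingers, each of which contacts a few bases of DNA, and many also carry a KRAB domain that recruits the corepressor Trim28 (KAP1). Trim28 in turn brings in the histone methyltransferase Setdb1 and heterochromatin proteins, and KRAB zinc finger proteins are best known for silencing transposable elements and for guarding imprinted loci. The genes multiplied in tandem, so that many lie side by side in clusters, and the exon that encodes the finger array is usually the last one. Promoters of such genes are often CpG-rich and unmethylated, while their 3′ exons are methylated and carry H3K9me3 in many cell types. Methylation is copied onto the new DNA strand by Dnmt1 with Uhrf1 when DNA is replicated.

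The samples were 12 reduced representation bisulfite libraries, 1 for each of 6 division fractions in each of 2 host mice, numbered 196 and 197. The labels give female mice of the B6.SJL-Ptprca Pepcb/BoyJ strain at 8 weeks, while the series text names C57/BL6J donors. Naive splenic B220+ CD43- B cells carrying the dyes CFSE or CTV, which dilute at each division, were transferred into uMT hosts, which have no B cells of their own. After a night of rest the hosts received LPS, and spleen cells were sorted on day 3. The fractions are undivided cells (Div0), cells after 1, 3 or 5 divisions (Div1, Div3, Div5), and cells of division 8 without CD138 (Div8neg) or with CD138, the plasma cell surface protein syndecan-1 (Div8pos). All 6 fractions, Div0 included, came from hosts that received LPS, so Div0 is an undivided and not an unexposed population.

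Libraries held 17969105 to 56775157 reads over the tabulated CpGs, with a median coverage of 20 to 66 reads per CpG, and every CpG had at least 10 reads in every library. The library of host 197 was the deeper one in each fraction. The reads carry no molecular tags, so PCR copies of one molecule can be counted more than once. As a check of the labels, 4 of 6 listed B cell genes had at least 5 CpGs, and their gene means in Div8pos ran from 15.3% at Pax5 to 68.4% at Ms4a1, against 19.2% and 85.7% in Div0. Among T cell genes, Cd3e had 81.0% and Cd4 76.3% in Div8pos, against 92.9% and 93.9% in Div0. Cd3d was low in both fractions, at 2.34% and 1.75%. Among myeloid genes, Csf1r had 86.6%, Lyz2 82.0%, Itgam 71.4% and Mpo 54.5% in Div8pos. In Div0 these had 98.8%, 95.2%, 83.4% and 64.4%. Mpo and Cd3d thus stood below Ms4a1 in both fractions, so the lists were not separated by level. These levels do not measure expression, and a part of other cells in the results below was not tested.

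The 5 promoter windows printed here show what was measured at the start of a Zfp gene. Each runs over 300 bases, starting 250 bases before the transcription start, 5′ to 3′ on the strand of the gene, and is taken from RefSeq on build GRCm38.p6. Capital CG marks the CpGs read in all 12 libraries, placed by their distance from the start because the deposited positions are on mm9. The first 3 genes are neighbours in 1 cluster on chromosome 2, Zfp54 belongs to the largest cluster, on chromosome 17, and Zfp217, a member outside any cluster, shows the CpG-rich extreme. The windows are chr2:150485014-150485313 on the minus strand for Zfp345, chr2:150136629-150136928 on the minus strand for Zfp120, chr2:150217849-150218148 on the plus strand for Zfp937, chr17:21422977-21423276 on the plus strand for Zfp54 and chr2:170131171-170131470 on the minus strand for Zfp217.
Zfp345: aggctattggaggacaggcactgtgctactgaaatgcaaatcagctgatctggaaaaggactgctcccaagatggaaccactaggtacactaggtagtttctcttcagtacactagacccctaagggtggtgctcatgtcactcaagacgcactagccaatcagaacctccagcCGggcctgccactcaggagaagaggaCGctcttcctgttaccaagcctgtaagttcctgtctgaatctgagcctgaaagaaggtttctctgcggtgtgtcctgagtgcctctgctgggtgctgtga
Zfp120: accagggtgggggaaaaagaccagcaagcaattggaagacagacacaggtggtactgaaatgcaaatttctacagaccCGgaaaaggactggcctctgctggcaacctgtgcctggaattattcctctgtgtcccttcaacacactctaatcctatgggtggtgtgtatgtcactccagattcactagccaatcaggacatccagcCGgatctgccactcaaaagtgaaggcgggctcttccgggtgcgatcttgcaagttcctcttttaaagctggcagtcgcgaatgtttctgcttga
Zfp937: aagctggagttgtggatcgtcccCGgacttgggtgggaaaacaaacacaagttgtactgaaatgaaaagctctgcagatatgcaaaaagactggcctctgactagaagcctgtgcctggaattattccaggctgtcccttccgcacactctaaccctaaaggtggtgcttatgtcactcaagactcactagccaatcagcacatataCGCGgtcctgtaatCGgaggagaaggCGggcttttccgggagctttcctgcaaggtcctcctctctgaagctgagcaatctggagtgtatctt
Zfp54: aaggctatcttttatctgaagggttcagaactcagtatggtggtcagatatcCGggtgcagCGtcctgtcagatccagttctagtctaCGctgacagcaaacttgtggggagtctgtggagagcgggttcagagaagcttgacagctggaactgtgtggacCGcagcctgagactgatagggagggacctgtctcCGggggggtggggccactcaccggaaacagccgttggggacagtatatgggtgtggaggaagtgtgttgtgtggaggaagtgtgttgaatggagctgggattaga
Zfp217: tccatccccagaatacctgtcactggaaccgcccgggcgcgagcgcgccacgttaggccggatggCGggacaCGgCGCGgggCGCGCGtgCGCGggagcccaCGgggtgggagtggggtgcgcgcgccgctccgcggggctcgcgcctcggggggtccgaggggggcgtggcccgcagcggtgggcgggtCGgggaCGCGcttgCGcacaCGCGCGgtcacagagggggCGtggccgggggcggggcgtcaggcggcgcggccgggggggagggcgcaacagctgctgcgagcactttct

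Among these windows, that of Zfp345 stood far above the others in every library. It had the highest Div0 level of all windows that could be marked, so this contrast follows from which windows were printed. The 2 measured CpGs of Zfp345, in a window with only 4 CG dinucleotides, averaged 52.3% and 53.9% in Div8pos of hosts 196 and 197, against 71.1% and 80.5% in Div8neg and 59.3% and 71.6% in Div0. The 2 of its neighbour Zfp120, in a window with 7, averaged 3.33% and 2.35% in Div8pos, against 7.5% and 3.57% in Div0. The 5 of Zfp937, in a window with 8, averaged 5.52% and 4.47% in Div8pos, against 10.0% and 6.94% in Div0. So within 1 cluster Zfp345 stood high in all 12 libraries and its neighbours low, although the windows resemble each other in places: all 3 hold the letters CCAAT. Zfp54 averaged 1.97% and 2.11% in Div8pos, against 0.625% and 1.63% in Div0. The 18 measured CpGs of Zfp217, in a window with 49 CG dinucleotides, averaged 1.96% and 1.8% in Div8pos, against 2.66% and 2.03% in Div0. Near-identical sequence between neighbours can send a read to the wrong copy, and how reads with several matches were treated is not given in the sources used here.

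In all, 238 of the 292 members matched a RefSeq promoter by gene identifier, 141 of these had a measured CpG in the window, and in 46 every measured CpG fell on a CG of the RefSeq sequence. Of these 46 windows, 43 averaged under 10% in Div0, and Zfp345 with 65.5% and Zfp951 with 30.3% were the only ones at 30% or more. The number of CG dinucleotides in a promoter window was a median of 16.0 for members and 7.0 for all 32851 RefSeq promoters. The sites cut by MspI (CCGG) and TaqI (TCGA), which decide what the assay reads, were present in 82.8% of 296 member promoters and in 60.5% of all promoters. The letters CCAAT, on either strand, were present in 42.6% and 37.4%. Members needed at least 5 CpGs read in this assay, a limit that itself favours genes with cut sites and CpGs, so these shares are a description and not a comparison.

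Away from the start the Zfp genes changed over to high methylation within a few kilobases, and the loss in Div8pos followed that change. Over the CpGs whose nearest start is the gene's own, those in the last 250 bp before the start averaged 4.11% ± 0.59 in Div8pos and 4.59% ± 0.266 in Div0 (SD over hosts, n = 2 each, as for every ± below), from 937 CpGs of 156 members. At 1 to 2.5 kb downstream they averaged 49.0% ± 0.466 in Div8pos and 54.7% ± 0.604 in Div0. At 5 to 10 kb downstream they averaged 76.4% ± 0.479 in Div8pos and 83.7% ± 0.0363 in Div0. The same intervals of all genes gave 5.23%, 39.4% and 70.0% in Div8pos, against 5.81%, 45.3% and 78.8% in Div0. Both curves were thus low at the start and high outside it, and the gap between the fractions widened where the level was high.

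**Figure D1:**
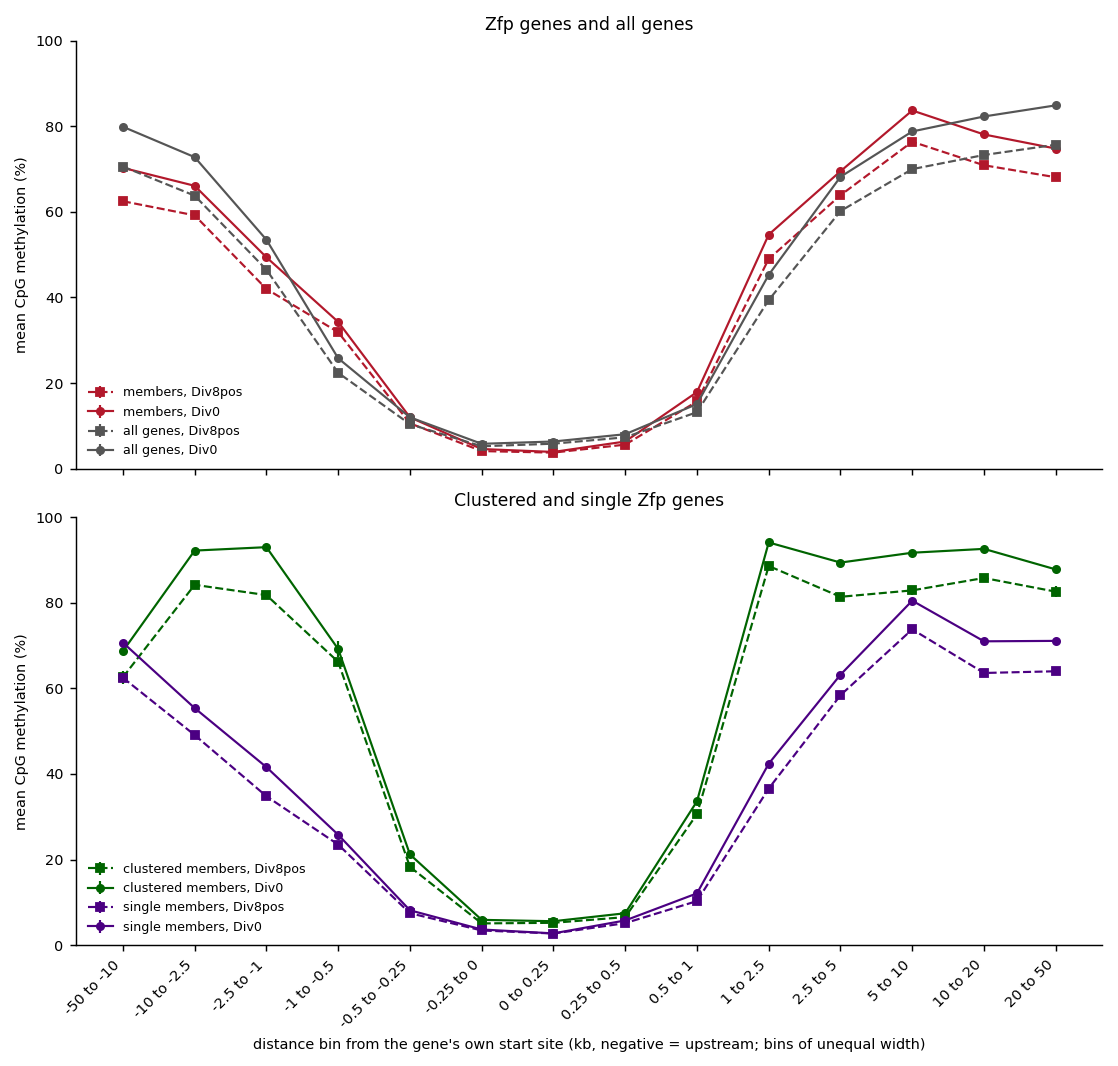
Mean CpG methylation (percent) in Div8pos and Div0 against distance from the gene's own transcription start, in bins of unequal width (kb), for the Zfp genes and all genes (upper panel) and for clustered and single Zfp genes (lower panel), with bars for the SD over 2 hosts. Zfp genes were near 4% at the start, and clustered members were above single members 1 to 2.5 kb downstream, at 94.1% and 42.4% in Div0.

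The members that lie in clusters differed from single ones in this flank and hardly at the start. A cluster was at least 3 members with successive median CpG positions at most 300 kb apart, which placed 131 members in 22 clusters and left 161 single. At 1 to 2.5 kb downstream, clustered members averaged 88.6% ± 0.913 in Div8pos and 94.1% ± 0.585 in Div0, from 126 CpGs of 23 genes. Single members averaged 36.6% ± 0.327 in Div8pos and 42.4% ± 0.61 in Div0 there, from 404 CpGs of 50 genes. At 1 to 2.5 kb upstream, clustered members averaged 81.8% in Div8pos and 93.0% in Div0, from 32 CpGs of 16 genes, and single members 34.8% in Div8pos and 41.6% in Div0, from 178 CpGs of 37 genes. In the first 250 bp after the start clustered members averaged 5.22% in Div8pos and 5.59% in Div0, and single members 2.72% in Div8pos and 2.75% in Div0. The low stretch around the start was thus shorter in clustered members, in both fractions and both hosts. Neither set was chosen on methylation, but the number of genes behind each interval is small and no test was made.

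At the level of whole genes, methylation of the Zfp genes changed little until division 5 and was lower after division 8, most of all in the CD138+ cells. The mean over the 292 members was 49.2% ± 0.12 in Div0, 49.0% ± 0.0889 in Div1, 49.0% ± 0.4 in Div3, 48.7% ± 0.272 in Div5, 47.2% ± 0.111 in Div8neg and 44.6% ± 0.497 in Div8pos. The corresponding means over all 16505 genes were 51.8%, 51.6%, 51.5%, 51.0%, 49.1% and 45.9%. Both means were lowest in Div8pos and next lowest in Div8neg. In Div8pos against Div0, 286 of 292 members were below 0, beside 15953 of 16505 genes, and 268 members were below 0 in both hosts.

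A gene was called when the limma test across all 16505 genes gave an adjusted p under 0.05 and the mean differed by at least 10 points. By that rule 20 of 292 members (6.85%) were lower in Div8pos than in Div0, beside 15.7% of all genes. None was higher, beside 0.0% of all genes, and none was above 0 at an unadjusted p under 0.05. The count was 12 of 251 with at least 10 CpGs per gene, 13 of 199 with at least 20 reads at every CpG in every library, and 31 of 292 with reads summed over a gene. These alternatives were counted for members only, so no share over all genes stands beside them. Without the size limit, 222 members were lower at an adjusted p under 0.05, beside 13268 of 16505 genes. The median difference was -3.94 points for members and -5.21 for all genes.

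The size of the difference ran with the starting level. Of the 54 members at 80% or more in Div0, 15 (27.8%) were lower, with a median of -8.08 points, beside 44.0% of 4114 genes in that range with a median of -9.46. Of the 190 members between 20% and 80%, 5 (2.63%) were lower, with a median of -3.91 points, beside 8.27% and -5.00 points for all genes. Of the 48 members under 20%, none was lower and the median was -1.36 points, beside 0.101% and -1.17 points. Within the 2 upper ranges the share called was smaller among members than among all genes.

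**Figure D2:**
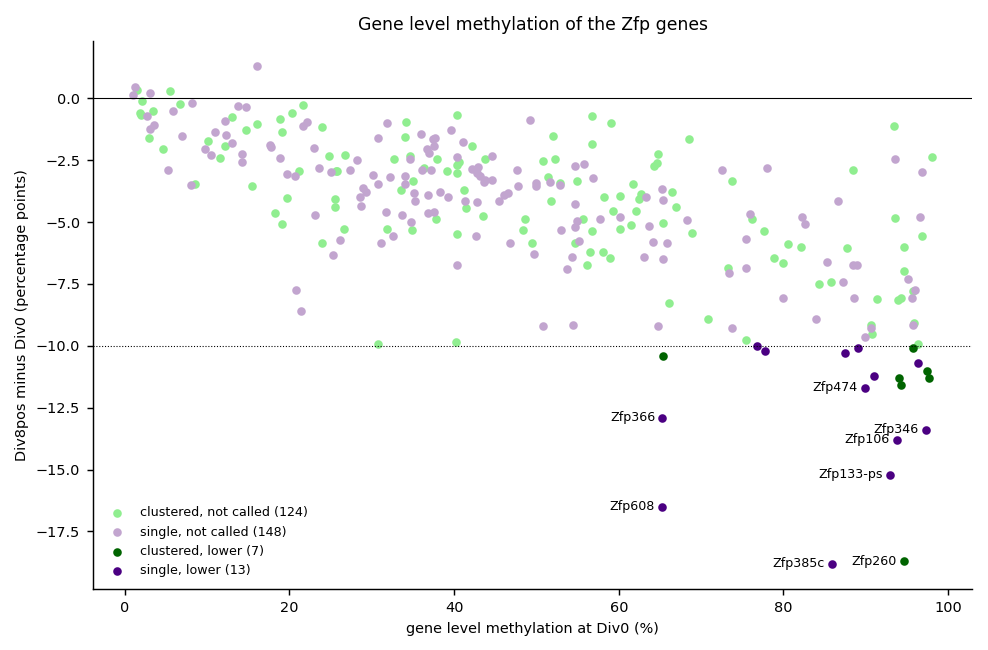
Difference in gene mean methylation between Div8pos and Div0 (percentage points) against the Div0 level (percent) for each of the 292 Zfp genes, in dark colour where called, with the 10-point limit dotted. Differences are near 0 at low levels, and 15 of the 20 called members start at 80% or more.

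The greatest losses were at Zfp385c and Zfp260. Zfp385c, with 19 CpGs between 100489253 and 100519082 on chromosome 11 (mm9), averaged 66.6% and 67.4% in Div8pos, 72.7% and 78.2% in Div8neg, and 83.6% and 88.1% in Div0. The groups did not overlap, and the difference between Div8pos and Div0 was -18.8 ± 1.81 points (SE, limma adjusted p = 2.06e-05). Zfp260, a partner of GATA factors in heart muscle, has 7 CpGs between 30877915 and 30896231 on chromosome 7 and averaged 74.7% and 77.1% in Div8pos, 89.3% and 88.2% in Div8neg, and 94.2% and 95.0% in Div0. Its difference of -18.7 ± 0.859 points (SE, limma adjusted p = 1.47e-06) lay for the larger part between the division 8 fractions, with -12.8 points in Div8pos against Div8neg (limma adjusted p = 0.000127). It was 1 of 2 members lower in Div8pos than in Div8neg, beside 2.09% of all genes.

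The other was Zfp106, which encodes an RNA-binding protein needed by motor neurons and muscle. It averaged 80.5% and 79.4% in Div8pos, against 91.3% and 90.1% in Div8neg and 93.9% and 93.7% in Div0. It differed by -10.7 points between Div8pos and Div8neg (limma adjusted p = 0.000138). Its level stood above 90% in Div8neg and below 81% only in Div8pos.

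Zfp608, known in mouse as a repressor of the recombinase genes Rag1 and Rag2 in thymocytes, was lower in both fractions of division 8 at an adjusted p under 0.05, though by under 10 points in Div8neg. Its 74 CpGs averaged 48.4% and 48.9% in Div8pos, 58.3% and 56.8% in Div8neg, 63.0% and 63.0% in Div5, and 65.7% and 64.6% in Div0. The difference between Div8pos and Div0 was -16.5 ± 0.71 points (SE, limma adjusted p = 1.18e-06), and 19 of its CpGs were lower one by one. Zfp366, also called DC-SCRIPT and best known from dendritic cells, averaged 53.9% and 51.0% in Div8pos, 58.4% and 57.1% in Div8neg, and 65.4% and 65.2% in Div0. These 2 members began at intermediate levels, unlike most called ones.

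Zfp133-ps, a pseudogene, averaged 77.5% and 78.1% in Div8pos, against 89.1% and 96.9% in Div0. Zfp346, a protein that binds double-stranded RNA, averaged 83.6% and 84.2% in Div8pos, against 98.5% and 96.2% in Div0. Zfp936 averaged 82.4% and 83.0% in Div8pos, against 94.3% and 93.7% in Div0. In none of the 3 did Div8pos overlap Div0. The other called members were Zfp474, Zfp493, Zfp786, Zfp616, Zfp414, Zfp618, Zfp563, Zfp735, Zfp551, Zfp451, Zfp947 and Zfp593, with differences of -11.7 points at Zfp474 to -10.1 at Zfp947 and just past the size limit at Zfp593. Zfp451, a SUMO ligase, was among them with 78.9% and 79.0% in Div8pos and 89.2% and 88.9% in Div0. Zfp474 and Zfp786 fell short of 10 points without the Div0 library of host 196, at -9.1 and -8.98, Zfp786 also without the Div8pos library of host 196, at -8.0, and Zfp493 without the Div8pos library of host 197, at -9.14. Zfp947 fell short without either library of host 197, at -9.66 without Div0 and -8.12 without Div8pos.

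**Figure D3:**
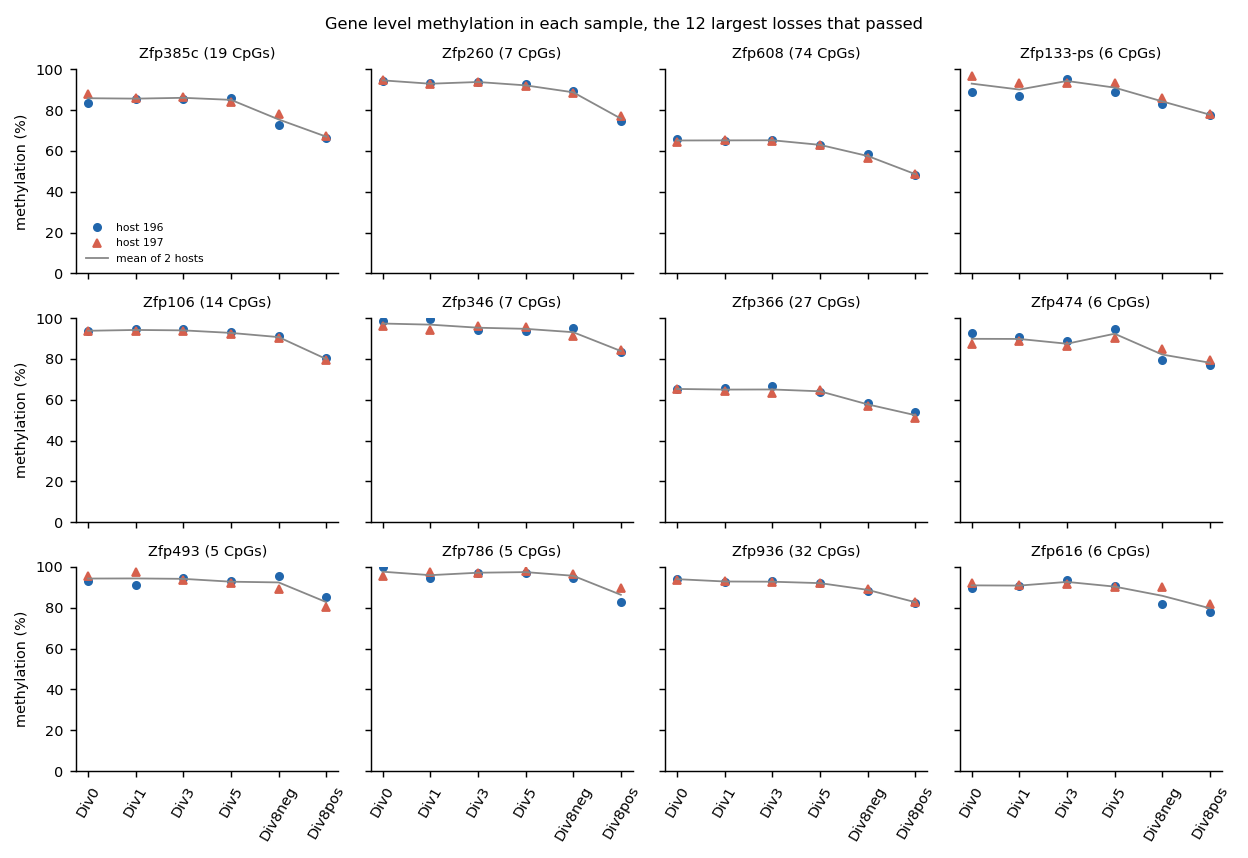
Gene mean methylation (percent) in each of the 12 libraries for the 12 Zfp genes with the largest called losses in Div8pos against Div0, with a point for each host and a line through their mean. Levels stay close together over Div0 to Div5 and are lowest in Div8pos, for example 74.7% and 77.1% at Zfp260 against 94.2% and 95.0% in Div0.

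In Div8neg against Div0, Zfp385c was the only member that was lower, by -10.4 ± 1.81 points (SE, limma adjusted p = 0.00325), beside 1.49% of all genes. None was higher, beside 0.0121%, and 1 member was above 0 at an unadjusted p under 0.05. The count in Div8neg rested on the libraries used: it was 0 without the Div8neg library of host 196, 2 without either Div0 library and 3 without the Div8neg library of host 197. The count in Div8pos against Div8neg was 5 without the Div8neg library of host 196 and 4 without that of host 197. At division 5 no member passed, beside 0.103% of all genes, with 20 members below 0 and 5 above 0 at an unadjusted p under 0.05. At divisions 3 and 1 no member passed either, beside 0.0% of all genes in both, with 4 and 3 members below 0, and 2 above 0 in each, at an unadjusted p under 0.05. A linear trend over the divisions in the 10 libraries without Div8pos called no member, beside 1.11% of all genes, with 126 members below 0 and 3 above 0 at an unadjusted p under 0.05. Without the Div0 or the Div5 library of host 196 the trend called 1 member.

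Of the members listed for a known role in lymphocytes, stem cells or silencing, none was called by gene mean in Div8pos against Div0. Among all genes 15.7% were lower, and no test compared the list with that share. Parts of some listed genes were called. The 3′ exon of Zfp318 was lower, and at Zfp568 the excess of the 3′ exon over the promoter was smaller, as given below. A run of CpGs at Zfp703 was also lower in Div8pos, at 79.1% against 87.3% in Div0. At division 5, 1 CpG assigned to each of Zfp281 and Zfp36l1 was lower. The values that follow are gene means unless another part is named. Zfp318, which lets mature B cells splice IgD beside IgM, averaged 20.8% and 21.2% in Div8pos, against 23.3% and 22.7% in Div0. Zfp36, Zfp36l1 and Zfp36l2 encode CCCH proteins that destabilise mRNAs with AU-rich elements and restrain lymphocyte growth. Zfp36 averaged 4.23% and 2.27% in Div8pos, against 3.58% and 2.45% in Div0. Zfp36l1 averaged 8.54% and 7.93% in Div8pos, against 10.8% and 10.3% in Div0. Zfp36l2 averaged 5.27% and 5.32% in Div8pos, against 6.16% and 5.45% in Div0. These CCCH members were low throughout, and the sign of the difference at Zfp36 depended on the libraries, at 0.231 points with all of them and -0.751 without the Div8pos library of host 196.

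Zfp521 and Zfp423, related proteins that bind the B cell factor Ebf1, stood far apart in gene mean. Their promoters were both low in Div0, at 5.53% from 7 CpGs for Zfp521 and 3.19% from 42 CpGs for Zfp423. The other positions read in these genes were not compared. Zfp521 averaged 79.7% and 77.6% in Div8pos, against 85.4% and 85.2% in Div0, and Zfp423 averaged 17.4% and 17.7% in Div8pos, against 21.0% and 20.4% in Div0. Neither reached 10 points, at -6.62 and -3.15. Zfp809, which silences endogenous retroviruses in embryonic cells, averaged 50.1% and 48.8% in Div8pos, against 52.0% and 53.8% in Div0. Zfp57, which keeps the methylation of imprinted regions, averaged 16.7% and 11.9% in Div8pos, against 16.1% and 13.2% in Div0, so its groups overlapped. Zfp42 (Rex1), a marker of pluripotent cells, averaged 90.4% and 91.7% in Div8pos, against 93.4% and 93.6% in Div0. Zfp281, a regulator of embryonic stem cells, averaged 26.0% and 25.1% in Div8pos, against 29.8% and 28.8% in Div0.

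Only 6 members stood above 0 in Div8pos against Div0, namely Zfp37, Zfp62, Zfp235, Zfp575, Zfp36 and Zfp389, picked out after their values were seen. None passed, 1 of them was above 0 in both hosts, and the greatest difference was 1.32 points at Zfp37, with 17.9% and 16.7% in Div8pos and 14.7% and 17.2% in Div0.

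Promoters and 3′ exons of the Zfp genes behaved as opposite ends of the same range. For 156 members with at least 3 CpGs in their own promoter class of the authors' annotation, the promoter mean was 13.4% ± 0.562 in Div8pos and 15.1% ± 0.243 in Div0, beside 18.1% in Div8pos and 20.8% in Div0 for all 8044 genes with such a promoter. In Div0, 112 of the 156 (71.8%) were under 10% and 18 (11.5%) were at 50% or more, beside 61.3% and 16.5% of all genes. For 90 members with at least 3 exon CpGs 5000 bp or more from the nearest start, taken here as 3′ exons, the mean was 87.0% ± 0.398 in Div8pos, 90.4% in Div8neg and 93.2% ± 0.216 in Div0, beside 80.6% in Div8pos, 84.7% in Div8neg and 88.1% in Div0 for 4209 genes. In Div0, 85 of the 90 (94.4%) were at 80% or more, beside 86.1% of all genes. The files give no exon number, so this class stands for exons far from a start and not strictly for the finger exon.

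Among the 156 promoters, 6 (3.85%) were lower in Div8pos than in Div0 by limma and 10 points, beside 7.24% of all promoters. The promoter of Zfp260 averaged 66.9% and 72.7% in Div8pos, 83.8% and 88.5% in Div8neg, and 91.7% and 93.8% in Div0, a difference of -22.9 ± 2.24 points (SE, limma adjusted p = 0.000402). It was also lower in Div8pos than in Div8neg, by -16.3 points (limma adjusted p = 0.00748), as were 1.59% of all promoters. The promoter of Zfp867 averaged 76.3% and 71.8% in Div8pos, against 96.4% and 92.1% in Div0. Those of Zfp109, Zfp133-ps, Zfp119b and Zfp503 differed by -15.9 to -10.2 points. The level of Zfp109 is a mean over 4 CpGs. The 1 CpG in its RefSeq window at the start stood at 6.49% in Div0 and 7.39% in Div8pos. The 112 promoters under 10% in Div0 had no room to fall by 10 points, so they could not be called lower. All 6 called promoters began at 50% or more. Without the Div0 library of host 196 there were 3 such promoters and not 6, and with the host as a term Zfp109 did not pass (limma adjusted p = 0.0552).

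Other methylated promoters were not called. That of Zfp42 averaged 89.7% and 92.9% in Div8pos, against 91.2% and 94.2% in Div0, and the groups overlapped. That of Zfp865 averaged 96.3% in Div8pos and 98.5% in Div0. The promoter of Zfp318 was unmethylated, at 1.49% and 0.992% in Div8pos and 0.926% and 1.87% in Div0.

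Among the 90 members with a 3′ exon, 14 (15.6%) were lower in Div8pos than in Div0, beside 22.4% of all genes. With exon CpGs 10000 bp or more from the nearest start, 7 of 50 were, and this option was counted for members only. That of Zfp936 averaged 57.0% and 59.9% in Div8pos, 68.8% and 77.5% in Div8neg, and 94.0% and 84.3% in Div0, from 3 CpGs. The difference was -30.7 ± 4.1 points (SE, limma adjusted p = 0.000328). That of Zfp362 averaged 70.7% and 71.4% in Div8pos, 77.2% and 75.6% in Div8neg, and 95.0% and 96.2% in Div0, a difference of -24.6 ± 1.48 points (SE, limma adjusted p = 7.7e-06). Both exons thus started high and lost methylation in each division 8 fraction.

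The others were Zfp563, Zfp385c, Zfp618, Zfp395, Zfp316, Zfp839, Zfp52, Zfp335, Zfp13, Zfp786, Zfp687 and Zfp318, at -15.2 points at Zfp563 to -10.1 at Zfp687, with Zfp318 at the size limit. At Zfp318 the ends of the gene stood apart. Its 3′ exon averaged 82.9% and 87.3% in Div8pos, against 94.7% and 95.5% in Div0. Its promoter stayed near 1%, where a loss of 10 points is not possible. The loss was not everywhere deepest in the CD138+ cells. The 3′ exon of Zfp13 averaged 73.9% and 69.9% in Div8pos, 66.9% and 67.3% in Div8neg, and 85.1% and 81.2% in Div0, so it stood lowest in Div8neg, by 4.81 points (limma adjusted p = 0.0904, which missed the threshold).

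In Div8neg against Div0, 4 exons were lower, those of Zfp936, Zfp362, Zfp335 and Zfp13, at -19.2 to -10.3 points, beside 3.28% of all genes. Zfp335, needed for T cell maturation in mouse, averaged 86.3% and 83.1% in Div8pos, 84.8% and 86.6% in Div8neg, and 97.2% and 94.7% in Div0. In Div8pos against Div8neg, 3 were lower, those of Zfp936, Zfp563 and Zfp395, at -14.7 to -10.5 points, beside 6.25% of all genes. A few 3′ exons were not methylated to begin with: that of Zfp697, with 71 CpGs, averaged 9.02% and 9.4% in Div8pos and 10.6% and 10.2% in Div0, and that of Zfp57 averaged 13.5% and 14.4% in Div8pos and 13.9% and 11.8% in Div0.

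**Figure D4:**
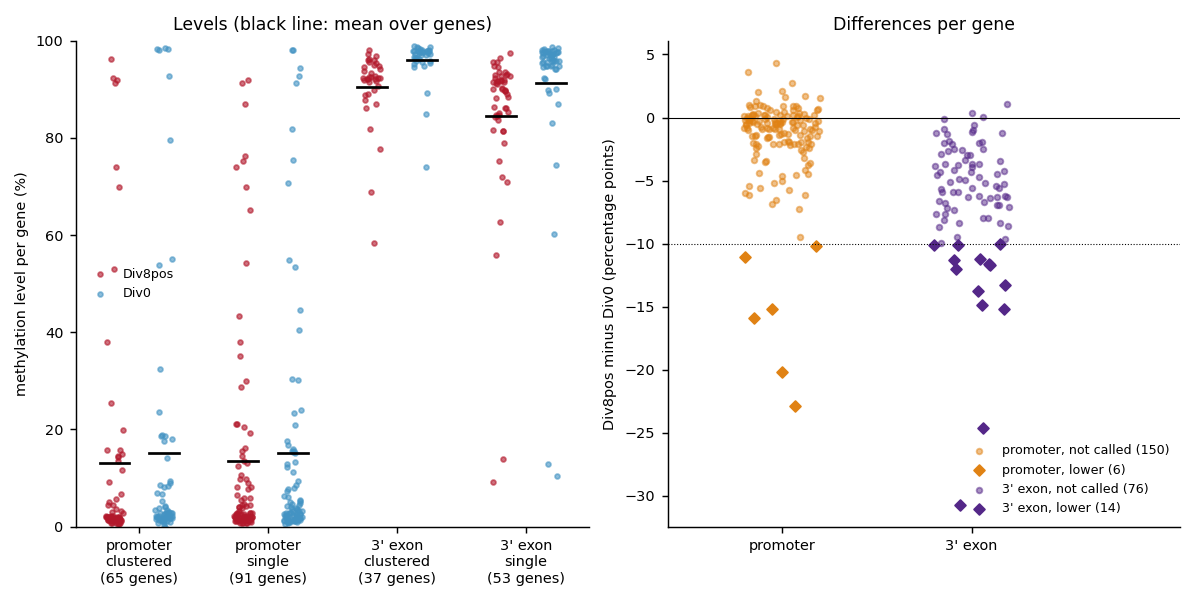
Promoter and 3′ exon methylation (percent) of clustered and single Zfp genes in Div8pos and Div0, each point a gene and the black line the mean (left), and the difference between the fractions per gene in percentage points, with called genes as diamonds (right). Promoters lie mostly under 10%, 3′ exons mostly above 80%, and the called exons reach down to 58.4% in Div8pos at Zfp936.

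In 38 members both ends were measured, and the 3′ exon exceeded the promoter by 69.8 ± 0.124 points in Div8pos and 72.6 ± 0.355 points in Div0. The excess was smaller in Div8pos in 5 of them (13.2%), Zfp395, Zfp316, Zfp839, Zfp128 and Zfp568, by -13.2 to -10.3 points, beside 14.3% of all 2310 genes. It was larger in 2, beside 2.38% of all genes: Zfp867, at 20.3 and 23.0 points in Div8pos and -2.7 and 5.85 points in Div0, and Zfp109, at 60.4 and 48.9 points in Div8pos and 40.7 and 44.1 points in Div0. In these last 2 the promoter lost more than the exon. Zfp568, which represses a placental Igf2 transcript in the mouse embryo, had an excess of 83.1 and 90.7 points in Div8pos, against 98.9 and 95.5 points in Div0. These counts rested on single libraries: 3 excesses were smaller without the Div0 or the Div8pos library of host 196 and 8 without the Div8pos library of host 197, and 1 was larger without either host 196 library or without the Div0 library of host 197.

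Clustered and single members lost similar amounts over whole genes. The 131 clustered members averaged 46.9% in Div8pos and 51.3% in Div0, with a mean difference of -4.49 ± 0.279 points over hosts. The 161 single members averaged 42.8% in Div8pos and 47.5% in Div0, with -4.68 ± 0.457 points. The ranges of the hosts overlapped, and the called members numbered 7 of 131 (5.34%) and 13 of 161 (8.07%), beside 15.7% of all genes. At 80% or more in Div0, 6 of 27 clustered members (22.2%) and 9 of 27 single members (33.3%) were lower, beside 44.0% of all genes there.

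Among 3′ exons, the means of clustered and single members lay further apart than the medians, which were 97.3% and 96.0% in Div0. The 37 clustered exons averaged 90.5% ± 0.638 in Div8pos and 96.0% ± 0.00708 in Div0, and the 53 single exons 84.6% ± 0.231 in Div8pos and 91.3% ± 0.371 in Div0. The single exons include those of Zfp697, Zfp57 and Zfp488, at 10.4%, 12.9% and 60.2% in Div0. Of the clustered exons 4 (10.8%) were lower, and of the single exons 10 (18.9%), beside 22.4% of all genes with such exons. Promoters of clustered and single members had the same mean in Div0, 15.1%, and 13.2% and 13.5% in Div8pos.

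The clusters ran from little to moderate loss. The largest, 14 members between 21508330 and 22606007 on chromosome 17, averaged 32.9% and 32.2% in Div8pos, against 36.8% and 36.3% in Div0, and 1 of its members, Zfp947, was lower. Its gene means ranged in Div0 from 2.98% at Zfp758 to 95.8% at Zfp947. A gene mean depends on the positions read: over all clustered members, promoter CpGs averaged 16.0% and 3′ exon CpGs 95.2% in Div0. The range therefore does not compare neighbours at the same position. The next largest, 12 members between 32890600 and 33767337 on the same chromosome, averaged 51.5% and 51.1% in Div8pos, against 57.1% and 57.1% in Div0, with Zfp563 and Zfp414 lower. Zfp955a, at -9.53 points, and Zfp101, at -9.06 points, just missed the size limit there.

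The cluster on chromosome 7 that holds Zfp260 and Zfp568, with 11 members, averaged 60.8% and 61.0% in Div8pos, against 66.6% and 66.7% in Div0. The deepest mean loss was -6.38 points, in 4 members on chromosome 8, and the shallowest -1.63 points, in 4 members on chromosome 9 that started at 20.6% and 21.6% in Div0. A cluster's loss did not follow its starting level alone: 3 members on chromosome 18 started at 40.8% and 40.4% in Div0 and differed by -6.20 points, while 4 on chromosome 7 started at 73.9% and 72.1% and differed by -4.14. These examples were picked out after their values were seen.

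CpG by CpG, 395 of 9620 member CpGs (4.11%) were lower in Div8pos than in Div0 by the quasi-binomial test, with an adjusted p under 0.05 over all CpGs and at least 20 points, beside 6.61% of all CpGs. Another 2 were higher, beside 0.0271%. In Div8neg against Div0, 54 were lower, beside 0.781%, and 2 were higher, beside 0.0397%. In Div8pos against Div8neg, 35 were lower, beside 0.636%. At division 5, 7 were lower, beside 0.123%, and 1 was higher, beside 0.00552%. The lower counts in Div8pos and Div8neg against Div0, and in Div8pos against Div8neg, depended on the deeper libraries. Each fell when a host 197 library of its fractions was left out. In Div8pos against Div8neg the lower count also fell without the Div8neg library of host 196. The lower counts over all CpGs fell in the same fits, so the fall was not confined to members. Each of these fits left 1 library in a fraction.

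The lower CpGs were spread over 148 members, with none in the other 144, and the 10 members with the most held 108 of them (27.3%). These counts were made for members only, so no share over all genes stands beside them. Zfp608 led with 19, followed by Zfp553 with 18 of 622 CpGs, only 35 of which lie nearest to its own start, Zfp316 with 12 and Zfp213 with 11. Over all members, 7962 of the 9620 CpGs lie nearest to their own gene's start, and 27 members have under 50% of such CpGs. By position, 7.39% of member CpGs outside the promoter, exons and introns of their own gene were lower. The share was 4.66% in introns, 4.17% in 3′ exons, 2.0% in other exons and 1.84% in promoters. Among CpGs with a gene symbol within the same distance, all genes gave 10.4%, 7.90%, 5.42%, 1.70% and 2.19%. Of member CpGs at 80% or more in Div0, 7.61% were lower, beside 10.9% of such CpGs of all genes. Of all CpGs of clustered members, 98 of 2832 (3.46%) were lower, and of single members 297 of 6788 (4.38%). Among CpGs of all genes within the same distance the share was 5.93%.

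Runs of at least 3 lower CpGs of a member, each at most 500 bp from the next, were taken as a region. Values were averaged over all covered CpGs between the first and the last. This gave 19 regions in 16 members for Div8pos against Div0, 4 for Div8neg against Div0 and 1 for Div8pos against Div8neg. Regions were counted for members only, so no number for all genes stands beside these. A region 34944 bp downstream of the start of Zfp608 showed the largest difference in points, where 5 CpGs between 55020204 and 55020377 on chromosome 18 averaged 98.1% and 96.2% in Div0, 98.5% and 96.3% in Div1, 96.9% and 93.6% in Div3, 76.8% and 89.4% in Div5, 44.8% and 33.1% in Div8neg, and 11.2% and 10.6% in Div8pos. None of its CpGs was called at division 5, and both Div8 fractions lay below every earlier fraction in both hosts. The region was defined by its loss in both Div8 fractions against Div0, so this order is a description. A part of it, 3 CpGs between 55020246 and 55020354, was the only region lower in Div8pos than in Div8neg.

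At Zfp184 on chromosome 13, 3 CpGs upstream of the start, between 22028987 and 22029019, averaged 2.96% and 3.66% in Div8pos, 13.3% and 10.5% in Div8neg, and 31.7% and 28.8% in Div0. An intron of Zfp367, between 64252241 and 64252376 on chromosome 13, averaged 21.0% and 31.3% in Div8pos, 46.0% and 48.2% in Div8neg, and 78.6% and 75.7% in Div0. An intron of Zfp385c, between 100509775 and 100509903 on chromosome 11, averaged 28.0% and 40% in Div8pos, 55.4% and 65.6% in Div8neg, and 82.2% and 91.3% in Div0. In these 3 regions Div8neg stood between Div8pos and Div0 in both hosts. All 3 were defined by their loss in Div8pos against Div0, so this order is a description.

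An intron of Zfp106, between 120388279 and 120388477 on chromosome 2, held its level until the CD138+ fraction: 41.6% and 42.0% in Div8pos, against 79.6% and 70.7% in Div8neg and 81.5% and 77.8% in Div0. The region with the most lower CpGs, 8 of 11, lay in an exon of Zfp316 between 144016219 and 144016443 on chromosome 5 and averaged 16.2% and 15.2% in Div8pos, 25.4% and 25.0% in Div8neg, and 41.5% and 33.6% in Div0. In the 3′ exon of Zfp13, between 23713161 and 23713329 on chromosome 17, the region called in Div8neg averaged 80.5% and 75.0% in Div8pos, 63.6% and 66.8% in Div8neg, and 97.6% and 92.6% in Div0. The region of Zfp13 was defined by its loss in Div8neg and that of Zfp106 by its loss in Div8pos, so the order of the fractions in them is a description. The regions of Zfp553 and Zfp444 lie nearest to the start of another gene.

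**Figure D5:**
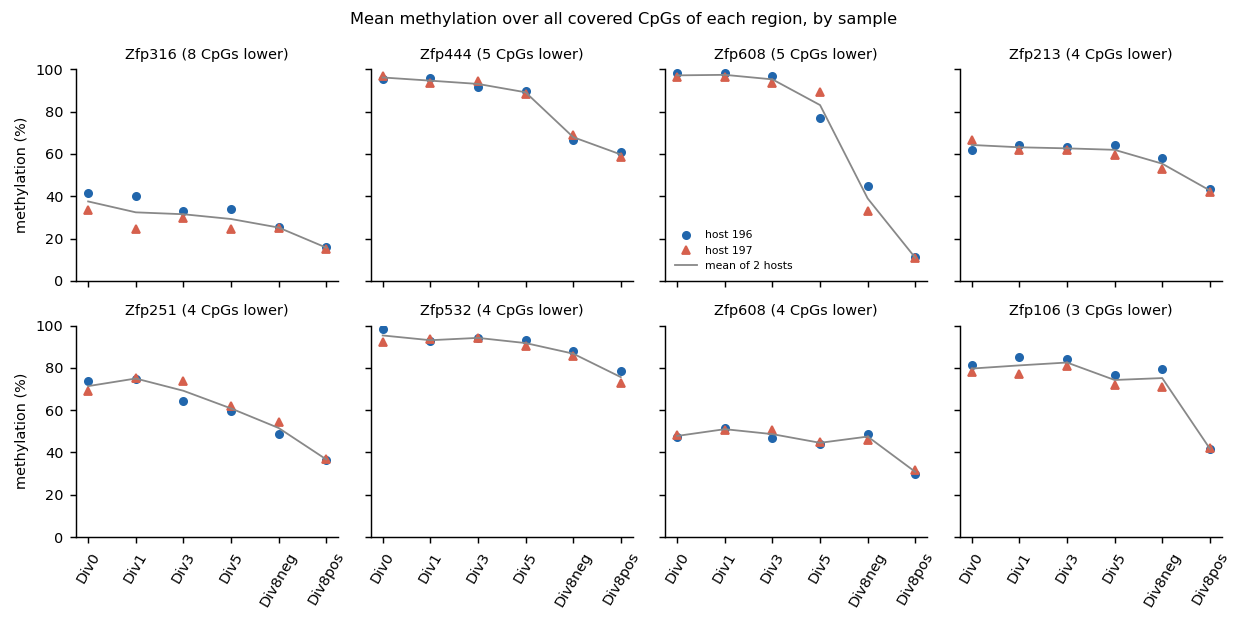
Mean methylation (percent) over all covered CpGs of 8 regions of Zfp genes, ordered by their number of lower CpGs with ties by name, by division fraction, with a point for each host and a line through their mean. The Zfp608 region reaches 44.8% and 33.1% in Div8neg and 11.2% and 10.6% in Div8pos, while the Zfp106 intron stays above 70% until Div8pos.

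Single CpGs that were already lower at division 5 showed the time course in more detail. In an intron of Zfp362, the CpG at 128465544 on chromosome 4 stood at 100% and 96.6% in Div0, 90.5% and 92.0% in Div1, 65.4% and 59.5% in Div3, 21.4% and 14.3% in Div5, 25.0% and 20.0% in Div8neg, and 0.0% and 4.88% in Div8pos. Its test at division 5 gave an adjusted p of 5.21e-13 by the quasi-binomial test. A neighbour at 128465536 was also lower. The annotation assigns to Zfp281 a CpG at 138498081 on chromosome 1, outside the promoter, exons and introns of that gene. It stood at 78.3% and 58.7% in Div0, 51.7% and 55.9% in Div3, 14.3% and 21.1% in Div5, and 0.0% and 0.0% in Div8pos. Both positions were chosen for being lower at division 5, and the Zfp362 CpG already stood below its Div0 level in both hosts at division 3. The other CpGs lower at division 5 were 2 of Zfp608 and 1 each of Zfp740 and Zfp36l1.

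Gains were rare. An intron of Zfp516, a factor of brown fat formation, held both CpGs that were higher in Div8pos. The one at 83124353 on chromosome 18 stood at 66.7% and 35.3% in Div0, 92.9% and 84.4% in Div5, 72.2% and 92.9% in Div8neg, and 78.9% and 83.3% in Div8pos, so its Div0 libraries were far apart. In Div8neg, the CpG of Zfp592 at 88178369 on chromosome 7 stood at 22.2% and 27.6%, against 2.56% and 0.752% in Div8pos and 2.27% and 4.55% in Div0. With the host as a term in the fit, 1 CpG and not 2 was higher in each of Div8pos and Div8neg.

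The proteins that work with KRAB zinc fingers and with maintenance methylation, a list of 27 genes of which 25 were measured, averaged 36.1% in Div8pos and 40.7% in Div0, with a median difference of -3.90 points, beside -5.21 for all genes. Only Cbx1, which encodes the heterochromatin protein HP1 beta, was lower, beside 15.7% of all genes, with 45.6% in Div8pos and 59.6% in Div0 from 5 CpGs. Trim28, Setdb1 and Dnmt1 averaged 26.2%, 28.2% and 63.6% in Div8pos, against 27.3%, 31.4% and 70.3% in Div0, and none of these passed. Other zinc finger families gave 0 of 10 Zkscan genes, 1 of 16 Zscan genes, 4 of 37 Zbtb genes and 0 of 17 Klf genes lower, beside 15.7% of all genes. Their median differences were -1.96, -5.09, -5.68 and -4.80 points, beside -3.94 for the Zfp genes and -5.21 for all genes. The median levels in Div0 were 28.3%, 87.9%, 48.6% and 38.9% in the same order, beside 46.3% for the Zfp genes and 50.2% for all genes. The families thus did not start alike, and they were not compared at equal levels. Zkscan and Zscan proteins carry a SCAN domain, Zbtb proteins a BTB domain, and Klf proteins are the Krüppel-like factors.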

How the data were processed

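Reduced representation bisulfite libraries cut with MspI and TaqI were read with Bismark and Bowtie2 on mm9, per the submitters' processing notes; no versions are named there. The authors deposited a table with the counts of methylated and unmethylated reads for each CpG and library, and, per the file headers, the fraction methylated, which equals methylated reads over all reads, together with a gene symbol, a class and the distance to the nearest start. Fractions were recomputed from the counts as percent.

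Gene levels were the plain mean over a gene's CpGs and were tested with limma 3.58.1 in R 4.3.3 on 12 libraries of 6 groups, adjusted by Benjamini-Hochberg over all genes. CpGs were tested on read counts with a quasi-binomial model whose dispersion was moderated with limma. Exact permutation of 2 against 2 samples cannot go below p = 0.3333 and was not used. The hosts are separate mice, but each fraction has only 2. Libraries with the same number share a host per the labels, so the numbers pair; deviations of paired libraries had correlations of -0.0109 to 0.0215 over 16505 genes.

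The members and lists were chosen with earlier results of these data known. Genes were named by rule: the 10 called members with the largest difference in Div8pos, those with the most CpGs, those called in the other contrasts, the members of the 2 largest clusters and a list of known roles; further called members and regions were named after their values were seen. Alternatives were a coverage of 20 reads, 5 kb, 10 CpGs, summed reads, the host as a block, other distances and leaving out each library.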

Additional observations from a re-analysis of the deposited data

How the results depend on the processing

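The host as a replicate block left the gene counts of members lower at 20 in Div8pos against Div0, 1 in Div8neg against Div0 and 2 in Div8pos against Div8neg, and ended 1 promoter call, that of Zfp109, so that 5 and not 6 were lower; CpG counts became 386, 50 and 32 lower, and 1 higher in each of Div8pos and Div8neg against Div0.

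Members lower in Div8pos against Div0 (20) numbered 13 with 20 reads, 12 with 10 CpGs per gene, 31 with reads summed and 222 with no size limit, and 18 to 26 leaving out single libraries. Those lower in Div8neg against Div0 (1) numbered 4, 2 (within 5 kb), 10 (1 higher), 0 (own start only), 85 and 0 to 3. Those lower in Div8pos against Div8neg (2) numbered 6, 4 (within 5 kb), 1, 4, 133 and 3 to 5 in that order of settings. The trend gave 0 to 1, promoters 3 to 5 (of 6), 3′ exons 7 at 10000 bp or more and 13 to 16 (of 14), and exon minus promoter 3 to 8 smaller and 1 to 2 larger.

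Lower CpGs in Div8pos against Div0 (395) numbered 939 at 10 points, 111 of 3448 with 20 reads and 102 to 409 without single libraries; higher ones 6, 0 and 0 to 3. In Div8neg against Div0 (54) they numbered 96, 28 and 16 to 61; higher 6, 1 and 0 to 2. In Div8pos against Div8neg (35) they numbered 22 with 20 reads and 9 to 34; higher 2 at 10 points and 0 to 1. Mean differences without single libraries were -4.82 to -4.15 for clustered and -5.04 to -4.31 for single members, -2.11 to -1.32 for promoters and -6.47 to -5.91 for 3′ exons; the clustered mean over CpGs was -3.98.

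Signs changed, none of them past the threshold, with reads summed at Zfp128 (9.63), Zfp943 (3.19), Zfp871 (0.291), Zfp952 (5.57), Zfp763 (5.56), Zfp36 (-0.118), Zfp57 (1.67) and Zfp809 (1.81), with 20 reads at Zfp568 (0.696), Zfp51 (0.348), Zfp36 (-1.38) and Zfp57 (0.668), within 5 kb at Zfp54 (0.911), Zfp946 (0.954) and Zfp811 (0.573, also with own-start CpGs), without Div8pos of host 197 at Zfp943 (0.0884, and -2.8 without that of host 196), Zfp952 (0.0984 and -3.38) and Zfp57 (2.04 and -2.72), without Div8pos of host 196 at Zfp36 (-0.751, and 1.21 without that of host 197), without Div0 of host 197 at Zfp36 (-0.332) and without Div0 of host 196 at Zfp57 (1.14). The cause was not tested. The options on own-start CpGs, the far end of transcripts and leaving out libraries for promoters, exons and trend were chosen after seeing the data. Depth limits CpG calls: the shallowest library had a median of 20 reads per CpG. The gene, promoter and 3′ exon counts under these options were made for members only, so no share over all genes stands beside them.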

Other observations

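Genes of the same naming family but with a letter after Zfp numbered 2 and averaged 31.9% in Div8pos and 33.9% in Div0. Among further Zfp genes, Zfp703 averaged 59.9% and 58.0% in Div8pos, against 64.8% and 66.0% in Div0, and Zfp64 averaged 49.6% and 49.1% in Div8pos, against 53.1% and 52.6% in Div0. Zfp292 averaged 21.4% and 20.8% in Div8pos, against 22.1% and 22.0% in Div0. Among plasma cell genes, Prdm1 averaged 48.5% and 46.8% in Div8pos, against 61.6% and 62.4% in Div0, and Irf4 averaged 8.82% and 9.27% in Div8pos, against 22.1% and 20.1% in Div0, both lower by limma. Sdc1, which encodes the CD138 used for the sort, averaged 42.5% and 42.1% in Div8pos, against 48.7% and 47.3% in Div0, and was not called.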
